A study of Mus musculus with 6 samples.

Results

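Broad H3K4me3 domains are stretches of chromatin over which trimethylation of histone H3 at lysine 4 runs on without a break further than at most promoters. They were taken here as deposited H3K4me3 peaks wider than 2000 bp on chromosomes 1 to 19, in either of the populations studied, with overlapping ones merged. This gave 862 domains among 23662 autosomal H3K4me3 regions, a region being the union of overlapping H3K4me3 peaks of both populations. The domains covered 2.17 Mb. Widths of H3K4me3 peaks chose the members, so every width and H3K4me3 score below is a description. SOX13 and H3K27me3 did not enter the choice.

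The cells were γδ thymocytes of C57BL/6 mice of genotype TCRbeta KO.Sox13 ECFP KI/+, in which the TCRβ gene is disrupted and 1 Sox13 allele carries a cyan fluorescent protein. Per the labels' protocols, CD24+ γδ cells were sorted by that fluorescence into Sox13hi (CFPhi) and Sox13lo (CFPlo/-) populations, so both share the genotype, the lost TCRβ and the single altered Sox13 allele. Neither the age of the mice nor the number pooled is stated in the labels. The libraries were H3K4me3 from Sox13hi and Sox13lo cells, H3K27me3 from Sox13hi and Sox13lo cells, and SOX13 from Sox13hi cells, with 1 library per group. Differences between the populations therefore carry no estimate of the spread between replicates. Intervals are 95% exact binomial and treat regions as independent, which neighbouring domains may not be, and they cover counting error only.

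H3K4me3 is laid down at active and poised promoters. In many cell types its broadest domains lie over genes of cell identity and over strongly transcribed genes. H3K27me3 is laid down by Polycomb repressive complex 2 at silenced genes, and promoters that carry both marks are called bivalent. SOX13 is a SoxD transcription factor that binds DNA through an HMG box and is known in the thymus for its part in γδ T cell programming. Gene positions in mm9, the build of the files, were not used here, so domains are named by position and the labelled cell type was not checked against marker genes.

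Peaks over 2 kb were a small class by number. There were 671 of 19924 autosomal H3K4me3 peaks in Sox13hi cells (3.37%) and 637 of 17954 in Sox13lo cells (3.55%). They held 9.69% of all H3K4me3-covered bases in Sox13hi and 9.85% in Sox13lo. The median peak of each list was 800 bp wide. In the H3K27me3 lists 27 of 14483 autosomal peaks in Sox13hi (0.186%) and 27 of 7268 in Sox13lo (0.371%) exceeded 2 kb.

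The 862 domains fell into 3 classes. The H3K4me3 peak was over 2 kb in Sox13hi only at 225 domains (26.1%), in Sox13lo only at 191 (22.2%) and in both populations at 446 (51.7%). Domains broad in 1 population were shorter, with a median of 2200 bp in each of those classes and 2500 bp for domains broad in both. All domains together had a median width of 2350 bp, and the widest measured 5500 bp.

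Breadth in 1 population rarely meant absence in the other. Among the 225 domains broad in Sox13hi only, 1 had no Sox13lo H3K4me3 peak at all, 136 had a single narrower one and 88 had several. Among the 191 broad in Sox13lo only, 1 had no Sox13hi peak, 129 had a single narrower one and 61 had several. The widest peak of the other population was over 1500 bp at 153 Sox13hi-only domains (68.0%) and at 137 Sox13lo-only domains (71.7%), and under 1000 bp at 19 and 7 of them. At most domains of both 1-population classes the other population thus fell short of the limit by less than 500 bp, as the plot of widths shows. At 73 of the Sox13hi-only and 56 of the Sox13lo-only domains the other population had several peaks which, from the first start to the last end, also spanned over 2 kb. Such a span counts the gaps and any part of a peak outside the domain, so it does not measure coverage. The other population covered under 50% of the domain at 10 of all Sox13hi-only and 7 of all Sox13lo-only domains.

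**Figure D1:**
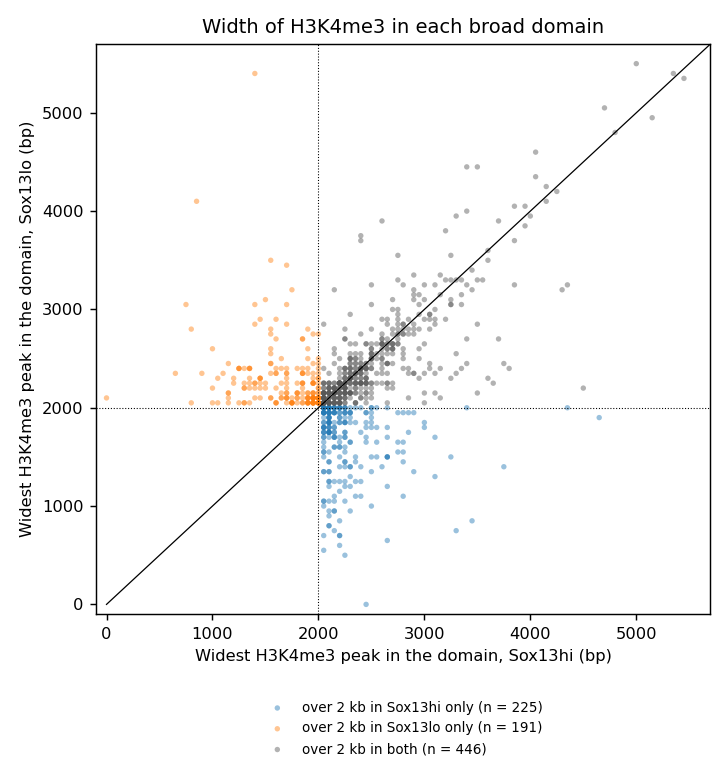
Each point is 1 of the 862 domains, placed by the width in bp of the widest H3K4me3 peak in Sox13hi cells (x axis) and in Sox13lo cells (y axis). Dotted lines mark the 2000 bp limit and the solid line equal widths. Domains broad in both populations follow the line of equal widths, and at 153 of the 225 Sox13hi-only and 137 of the 191 Sox13lo-only domains the other population has a peak of over 1500 bp.

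The limit itself lay in the upper tail of the widths, with no gap in the counts around it. At the first width above it, 2050 bp, there were 69 peaks in Sox13hi and 75 in Sox13lo. At 2000 bp, just outside, there were 84 and 66. Just inside were the Sox13hi peaks on chromosome 1 at 88254901 to 88256949 (score 196) and 90597301 to 90599349 (294), and just outside those at 36124851 to 36126849 (164) and 52288701 to 52290699 (250). In Sox13lo the corresponding peaks on chromosome 1 were at 55143701 to 55145749 (268) and 57028851 to 57030899 (142), and at 21950501 to 21952499 (191) and 66862851 to 66864849 (141). The scores, which are the authors' own value per peak, overlapped between the 2 sides of the limit.

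Where H3K4me3 was broad in both populations, its ends lay close together. At 412 of the 446 domains each list had exactly 1 peak. Of their 824 ends, 205 (24.9%) lay at the same position in both lists and 631 (76.6%) within 100 bp of each other. The median distance between the ends was 50 bp, which is the grid of the files, and 15 ends were more than 500 bp apart. The Sox13hi peak was the wider one at 193 domains and the Sox13lo peak at 156, with equal widths at 63. Median widths were 2400 bp in Sox13hi and 2350 bp in Sox13lo.

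The broad peaks also scored high. Their median lay at the 95.9th percentile of the Sox13hi list by score and at the 96.4th of the Sox13lo list, and none fell in the lower 50% of its list. Width and score are closely tied in these lists (Spearman's rho across peaks 0.934 in Sox13hi and 0.931 in Sox13lo, given as a description). Breadth was not the same as a top score, however. Of the 10 highest-scoring peaks, 6 in Sox13hi and 8 in Sox13lo were over 2 kb, and the highest-scoring one was 1950 bp wide in Sox13hi and 850 bp in Sox13lo. Domains broad in both populations ranked highest, with a median at the 97.7th percentile in Sox13hi and the 97.4th in Sox13lo. Sox13hi-only domains had medians at the 92.4th percentile in Sox13hi and the 85.0th in Sox13lo, and Sox13lo-only domains at the 87.5th in Sox13hi and the 93.3rd in Sox13lo.

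The widest domain lay on chromosome 10, 79610501 to 79615999. H3K4me3 formed a single peak of 5000 bp in Sox13hi and of 5500 bp in Sox13lo. It held 1 SOX13 peak 400 bp wide and no H3K27me3. The domain on chromosome 17, 36002451 to 36007899, had peaks of 5450 bp in Sox13hi and 5350 bp in Sox13lo, and another on that chromosome, 34254701 to 34260099, had peaks of 5350 and 5400 bp. Neither held SOX13 or H3K27me3. A domain of 4800 bp in each population, on chromosome 2 at 31935651 to 31940449, had identical ends in the 2 lists and 1 SOX13 peak. Others among the 10 widest were also broad in both populations. On chromosome 11, 3188601 to 3193899 had peaks of 5150 bp in Sox13hi and 4950 bp in Sox13lo and held 1 SOX13 peak. On chromosome 14, 26276651 to 26281349 had a widest Sox13hi peak of 4050 bp against 4600 bp in Sox13lo, and on chromosome 10, 41993951 to 41998549 had 3400 bp against 4450 bp, with 2 Sox13hi peaks in each of them. Of the 10 widest domains, 8 were broad in both populations, 3 held SOX13 and 1 held H3K27me3. Among all domains 51.7% were broad in both, 16.0% held SOX13 and 17.3% held H3K27me3 in either population. Counts in so few domains, chosen by width, show little beside these shares.

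The largest excess of width in Sox13hi was on chromosome 19, 4301701 to 4306349. A single Sox13hi peak of 4650 bp lay over 3 Sox13lo peaks of 1500, 500 and 1900 bp, which together covered 3850 bp of it. Sox13lo cells therefore had the mark over most of this domain, in pieces. On chromosome 5, 52504351 to 52507799, a Sox13hi peak of 3450 bp faced 3 Sox13lo peaks that covered 1850 bp. H3K27me3 covered 1900 bp of that domain in Sox13hi and 2950 bp in Sox13lo. A domain at 114423851 to 114427149 on chromosome 12 had a Sox13hi peak of 3300 bp against a widest Sox13lo peak of 750 bp. One at 126725101 to 126728849 on chromosome 10 had 3750 bp in Sox13hi against 1400 bp in Sox13lo, and neither held H3K27me3. Among the domains of this paragraph, only that on chromosome 5 held SOX13, in 1 peak.

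A pair of neighbouring domains on chromosome 1 was broad in Sox13hi only. The first, 135312901 to 135315349, is the single domain with a Sox13hi peak (2450 bp, score 68.5) and no Sox13lo peak inside it. The second, 135318301 to 135321149, starts 2950 bp further on and had a Sox13hi peak of 2850 bp against a Sox13lo peak of 1950 bp. Across the pair Sox13hi cells had 4 H3K4me3 peaks, of 2450, 750, 1050 and 2850 bp, and Sox13lo cells 2, of 300 and 1950 bp. The second domain held 2 SOX13 peaks, 700 and 650 bp wide, and neither domain held H3K27me3 in either population. The pair was chosen after its values were seen.

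In the opposite direction the largest difference was on chromosome 5, 141082551 to 141087949. H3K4me3 formed 3 peaks in Sox13hi cells, the widest 1400 bp, and together covered 2200 bp, while in Sox13lo cells a single peak spanned 5400 bp. H3K27me3 covered 1050 bp of this domain in Sox13hi and 150 bp in Sox13lo. On chromosome 9, 108953501 to 108957599, the widest Sox13hi peak was 850 bp and the Sox13lo peak 4100 bp, with no H3K27me3 in either. A domain at 132746801 to 132749849 on chromosome 7 had a Sox13hi peak of 750 bp against a Sox13lo peak of 3050 bp, and one at 98800801 to 98803599 on chromosome 11 had 800 bp in Sox13hi against 2800 bp in Sox13lo. The domain on chromosome 15, 78323551 to 78325649, had no Sox13hi peak and a Sox13lo peak of 2100 bp. None of these 5 domains held a SOX13 peak. Among all Sox13lo-only domains 9.95% held one, so a lack of SOX13 in so few domains shows little.

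**Figure D2:**
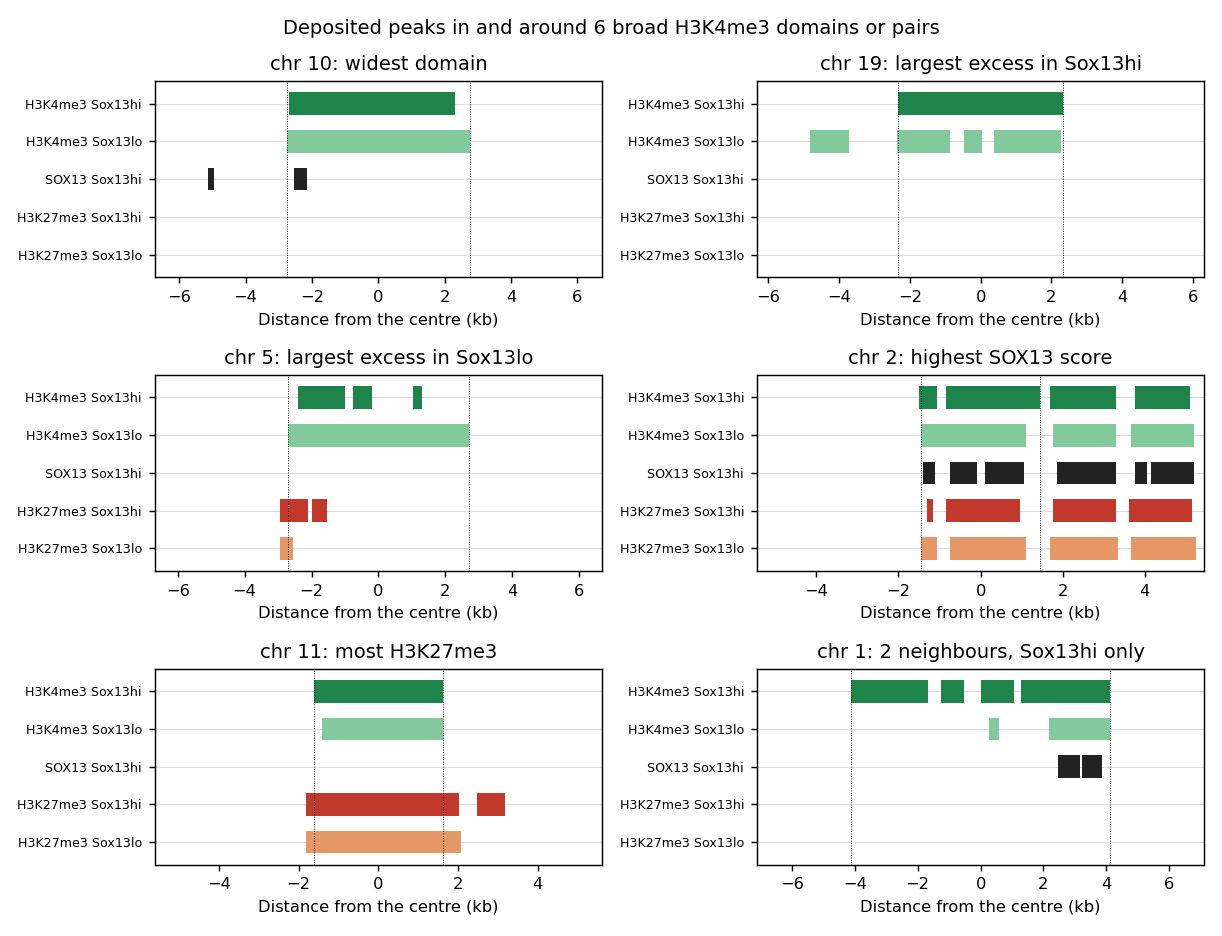
Deposited peaks of the 5 lists (rows) around 6 broad domains or pairs, by distance in kb from the centre, with dotted lines at the ends of the domain or pair. Bars are peaks. The chromosome 19 domain is 1 Sox13hi peak over 3 Sox13lo pieces, the chromosome 5 domain is 1 Sox13lo peak over 3 Sox13hi pieces, and the chromosome 2 domain has peaks of all 5 lists over the same bases.

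SOX13 peaks, mapped in Sox13hi cells, lay in 138 of the 862 domains (16.0%, 13.6 to 18.6%). Of all H3K4me3 regions 8.94% held one, and of the 6673 regions with a widest peak of more than 1000 and at most 2000 bp, called the next-narrower regions below, 9.91% did (9.20 to 10.6%). The difference between the domains and these was 6.10 percentage points (3.60 to 8.82). Domains are longer, though, and per length the order did not hold. They had 6.88 SOX13 peaks per 100 kb against 7.34 in the next-narrower regions, and SOX13 covered 2.42% and 2.63% of their bases. Within the domains the share with SOX13 was 13.9% (11.2 to 16.9%) for widest peaks of up to 2500 bp and 22.9% (15.4 to 32.0%) for those over 3000 bp. SOX13 covered 2.07% of the bases of the first group and 2.45% of those of the second, with 3.42% in the group between them.

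**Figure D3:**
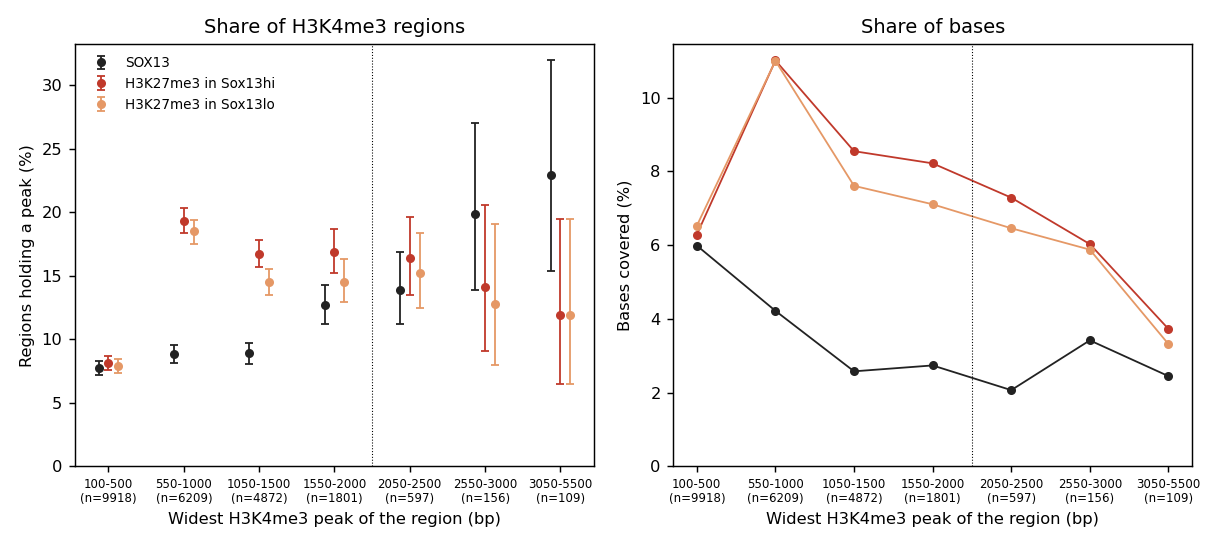
All 23662 autosomal H3K4me3 regions grouped by the width in bp of their widest H3K4me3 peak, with the number of regions under each group. The left panel gives the share of regions holding a SOX13 or H3K27me3 peak with 95% exact binomial intervals, the right panel the share of their bases under such peaks, and dotted lines mark the 2000 bp limit. The share holding SOX13 is 22.9% in the widest group, while the share of bases under SOX13 there is 2.45%.

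Over all domains together SOX13 was denser away from the ends than near them. With a zone of 500 bp on either side of each end, 108 domains (12.5%, 10.4 to 14.9%) had a SOX13 peak whose midpoint lay further inside than the zone, and 39 (4.52%, 3.24 to 6.13%) had one within the zone. These shares follow the zone chosen: at 1000 bp they were 4.87% further inside and 13.3% within it. Of the peaks in the zone, 32 had their midpoint inside the domain and 7 outside it. Per length there were 8.89 peaks per 100 kb in the inner part, 3.71 in the 500 bp inside an end, 0.812 in the 500 bp outside it and 1.03 in the flank from 500 bp to 5 kb out. The Sox13lo-only domains did not show this order inside, with 4.41 peaks per 100 kb in the inner part and 4.71 in the 500 bp inside an end, from 11 and 9 peaks. The share of bases under SOX13 was 0.708% in the first 250 bp inside an end and 3.40% at 750 to 1000 bp. Outside the ends it was between 0.116% and 0.441% in each step of 250 bp out to 3000 bp.

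This gradient was not particular to broad domains. In the next-narrower regions there were 9.51 SOX13 peaks per 100 kb further than 500 bp from both ends, 6.37 within 500 bp inside an end and 0.704 just outside. The share of bases under SOX13 was 1.13% in their first 250 bp and 4.17% at 750 to 1000 bp. These regions are shorter, so the last of these steps is their middle.

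**Figure D4:**
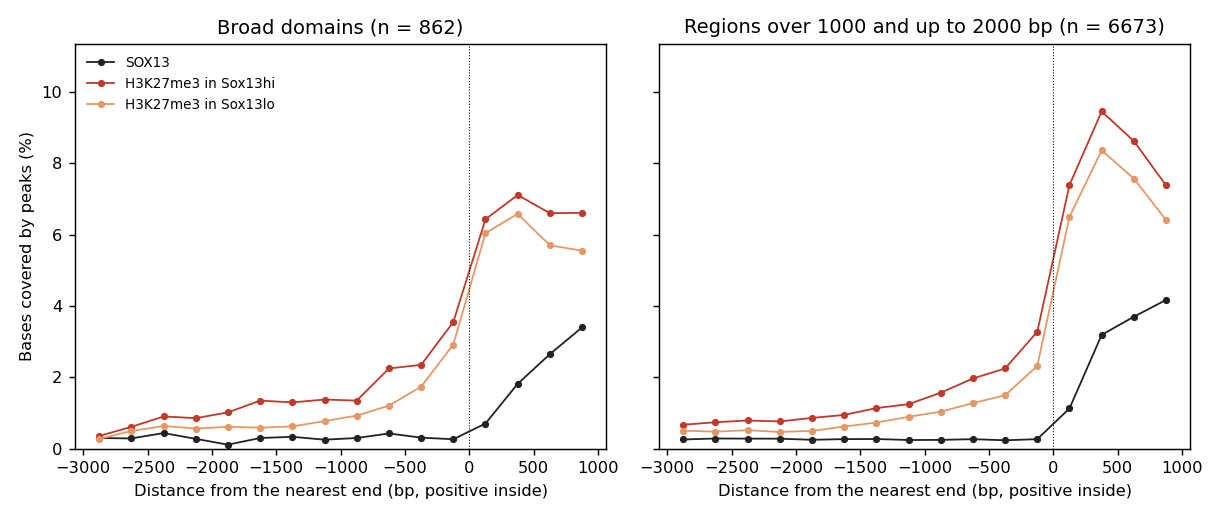
Share of bases under deposited peaks by distance in bp from the nearest end, in steps of 250 bp with both ends folded together, for the 862 domains (left) and the 6673 regions with a widest peak over 1000 and up to 2000 bp (right). In the domains SOX13 goes from 0.708% of bases in the first step inside to 3.40% in the last shown, and H3K27me3 in Sox13hi from 6.43% to 6.61%.

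The SOX13 peaks of the domains ranked above the middle of their list. There were 149 of them, 1.10% of the autosomal SOX13 list, with 1 peak in 128 domains, 2 in 9 and 3 in 1. Their median score lay at the 72.6th percentile of the list, against the 80.1st for SOX13 peaks in other H3K4me3 regions and the 44.1st for those outside H3K4me3. The highest score in a domain was 34.5 and the highest in the autosomal list 6724. Domains with SOX13 had H3K4me3 peaks with a median at the 97.0th percentile of the Sox13hi list, and domains without SOX13 at the 94.5th.

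The domain with the highest SOX13 score was on chromosome 2, 27351101 to 27353999. It held 3 SOX13 peaks, 300, 650 and 950 bp wide, and all 3 touched H3K27me3. H3K27me3 covered 1950 bp of it in Sox13hi and 2250 bp in Sox13lo, and H3K4me3 covered 2700 and 2550 bp. Peaks of all 5 lists thus lay over the same bases, inside the domain and beyond its right end. Enrichment without an antibody was not examined there, since the input library was not used here. In all, 25 domains had peaks of all 5 lists. Counted separately, 23 domains had a SOX13 peak that touched H3K27me3 of either population. The matching shares of all H3K4me3 regions were not computed, so neither count can be set against a background.

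The next in SOX13 score had no such overlap. On chromosome 12, 114661751 to 114664349, a SOX13 peak 600 bp wide (score 32.0) had its midpoint 1199 bp inside the domain, where H3K4me3 measured 2600 bp in Sox13hi and 2400 bp in Sox13lo. On chromosome 6, 119428701 to 119431499 held 2 SOX13 peaks (scores 25.2 and 7.75) and 140571601 to 140573699 held 1 (24.8), with H3K27me3 in neither domain. The domain on chromosome 7, 7249951 to 7253749, differed in having its SOX13 peak (26.5) across its left end. It also held 100 bp of H3K27me3 in Sox13hi and 550 bp in Sox13lo.

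SOX13 was found in 14.7% of Sox13hi-only domains (33 of 225, 10.3 to 20.0%), 9.95% of Sox13lo-only domains (19 of 191, 6.10 to 15.1%) and 19.3% of domains broad in both (86 of 446, 15.7 to 23.3%). Sox13hi-only and Sox13lo-only domains differed by 4.72 percentage points (-2.02 to 11.3), an interval that spans 0. Sox13lo-only domains minus those broad in both gave -9.33 points (-14.9 to -3.07). That difference was -3.80 points (-7.00 to -0.213) at a width limit of 1500 bp and 0 (-20.1 to 22.9) at 3000 bp, and with peaks within 1 kb joined it was -5.08 (-9.70 to 0.137). Among domains of at most 2500 bp, a comparison added after seeing the data, it was -5.87 points and its interval included 0 (-12.7 to 1.36). For SOX13 midpoints further than 500 bp from both ends, also examined after the first values were seen, the shares were 12.0% in Sox13hi-only and 5.24% in Sox13lo-only domains, a difference of 6.76 points (1.02 to 12.4). In all, 19 differences of this kind were computed over SOX13 and H3K27me3, and their intervals are not adjusted for that number.

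The bases that set the breadth in 1 population held little SOX13. In Sox13hi-only domains 102 kb carried no H3K4me3 in Sox13lo, and SOX13 covered 0.394% of them, against 3.06% of the 418 kb that carried H3K4me3 in both. In Sox13lo-only domains SOX13 covered 0.118% of the 84.8 kb without H3K4me3 in Sox13hi and 1.86% of the 356 kb shared. Of the bases without the other population's H3K4me3, 65.9% in Sox13hi-only and 63.95% in Sox13lo-only domains lay within 500 bp of an end, against 37.8% and 38.5% of the shared bases. The part of position within the domain in these shares was not tested.

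H3K27me3 lay in 133 domains in Sox13hi cells (15.4%, 13.1 to 18.0%) and in 124 in Sox13lo cells (14.4%, 12.1 to 16.9%). Among all H3K4me3 regions the shares were 13.8% and 12.8%, so the domains were close to the background. They were as close to the next-narrower regions, with differences of -1.37 points (-3.89 to 1.37) in Sox13hi and -0.136 points (-2.57 to 2.52) in Sox13lo. Per base the domains carried less, with H3K27me3 over 6.36% of bases in Sox13hi and 5.73% in Sox13lo, against 8.44% and 7.44% in the next-narrower regions. In domains with a peak over 3000 bp it was 3.73% in Sox13hi and 3.32% in Sox13lo.

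The same domains carried H3K27me3 in both populations for the most part. Of the 149 domains with H3K27me3 in either, 108 had it in both, 25 in Sox13hi alone and 16 in Sox13lo alone. The other 713 domains had none. Of the next-narrower regions, 1121 had H3K27me3 in Sox13hi, 969 in Sox13lo and 857 in both. Sharing of the mark was thus not particular to the domains. The share with H3K27me3 in both was 12.5% of domains, close to the 12.8% of next-narrower regions, and 9.73% of all H3K4me3 regions. Where present, H3K27me3 covered a median of 1000 bp of the domain in Sox13hi and 875 bp in Sox13lo. It lay over more than 50% of the domain at 51 domains in Sox13hi and 46 in Sox13lo, of which 35 were shared.

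H3K27me3 was not concentrated in the middle of the domains. Its midpoints were found at 7.66 per 100 kb in the inner part in Sox13hi and 6.36 in Sox13lo, and at 10.9 per 100 kb in each population within 500 bp inside an end. Just outside the ends there were 4.18 per 100 kb in Sox13hi and 2.44 in Sox13lo, and in the flank to 5 kb 1.95 and 1.17. The order inside was the same in the next-narrower regions. Their inner part had 12.8 in Sox13hi and 11.1 in Sox13lo, and the 500 bp inside an end 14.8 and 13.1. By bases covered, steps of 250 bp within 1000 bp inside the domains differed little, from 6.43% to 7.11% in Sox13hi and from 5.55% to 6.58% in Sox13lo. The Sox13hi list is the longer of the 2, with 14483 autosomal peaks against 7268. H3K27me3 peaks in the domains ranked high in their own lists, with a median at the 90.3rd percentile by score in Sox13hi and the 80.1st in Sox13lo. Those in other H3K4me3 regions also ranked high, with medians at the 84.6th percentile in Sox13hi and the 72.6th in Sox13lo. Those outside H3K4me3 had medians at the 40.3rd and 32.7th percentiles.

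Domains broad in Sox13hi only held H3K27me3 most often of the 3 classes in each population at the 2000 bp limit. The shares in Sox13hi cells were 23.6% of Sox13hi-only domains (18.2 to 29.7%), 16.2% of Sox13lo-only (11.3 to 22.2%) and 11.0% of domains broad in both (8.24 to 14.3%). In Sox13lo cells they were 24.4% (18.98 to 30.6%), 14.7% (9.97 to 20.5%) and 9.19% (6.68 to 12.3%). Sox13hi-only domains exceeded those broad in both by 12.6 points (6.27 to 19.3) in Sox13hi and by 15.3 points (8.98 to 21.9) in Sox13lo. Among domains of at most 2500 bp the differences were 11.4 points (3.79 to 19.1) and 13.1 points (5.64 to 20.6). They did not hold at a width limit of 3000 bp, where 37 domains were broad in Sox13hi only and the differences were -3.00 (-17.4 to 12.7) and 4.14 points (-9.83 to 19.7). At that limit Sox13lo-only domains had the highest shares, 18.5% in Sox13hi cells and 22.2% in Sox13lo cells, against 8.11% and 10.8% of Sox13hi-only domains, with wide intervals.

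Sox13hi-only and Sox13lo-only domains differed by 7.33 points in Sox13hi cells (-0.744 to 15.2) and by 9.78 points in Sox13lo cells (1.80 to 17.5). At 3000 bp both differences turned, to -10.4 points (-31.0 to 8.02) and -11.4 points (-32.9 to 8.55), and at 1500 bp they were 15.6 points (10.2 to 21.00) and 16.4 points (11.2 to 21.6). Domains with H3K27me3 also had lower H3K4me3 scores, with medians at the 91.0th percentile of the Sox13hi list and the 86.6th of the Sox13lo list, against the 95.7th and 95.8th for domains without. The part of H3K4me3 strength in the class differences was not tested. In Sox13hi-only domains H3K27me3 of Sox13lo cells covered 12.4% of the bases without Sox13lo H3K4me3 and 10.5% of those with it, and H3K27me3 of Sox13hi cells 9.99% and 10.5%.

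**Figure D5:**
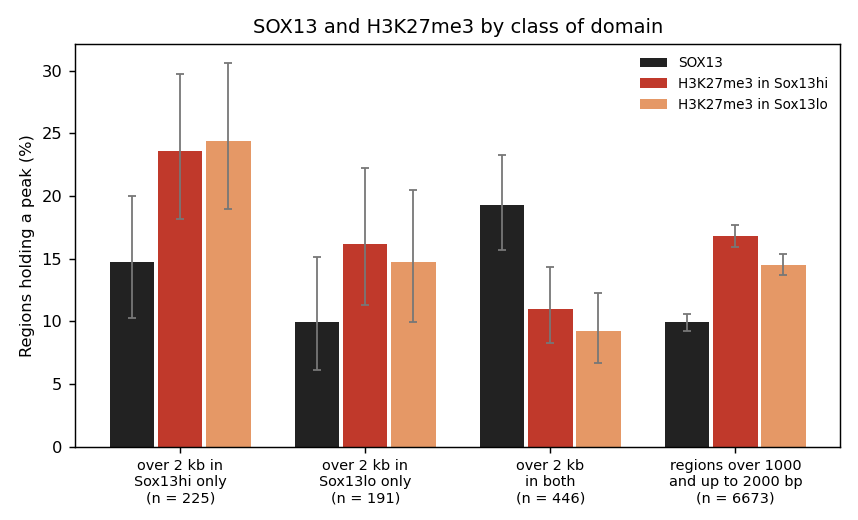
Share of regions holding a SOX13 peak or an H3K27me3 peak (y axis, %), by class of domain and for regions with a widest peak over 1000 and up to 2000 bp, with the number of regions under each group; bars are shares and error bars 95% exact binomial intervals. Sox13hi-only domains reach 23.6% and 24.4% for H3K27me3 in Sox13hi and Sox13lo, and domains broad in both reach 19.3% for SOX13.

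The domain with the most H3K27me3 lay on chromosome 11, 82743851 to 82747099. H3K4me3 measured 3250 bp in Sox13hi and 3050 bp in Sox13lo, and H3K27me3 covered all 3250 bp in each population. On the same chromosome, 74978851 to 74981349 had 2150 bp of H3K27me3 in Sox13hi and all 2500 bp in Sox13lo. Both were broad in the 2 populations and held no SOX13. The Sox13hi-only domain on chromosome 2, 25432801 to 25435449, had 2650 bp of H3K27me3 in Sox13hi and 2300 bp in Sox13lo, with 1 SOX13 peak. A Sox13lo-only domain on chromosome 18, 11052151 to 11055199, had 2800 and 2450 bp and no SOX13.

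Both SOX13 and H3K27me3 were present in 30 domains. H3K27me3 of either population was present in 30 of the 138 domains with SOX13 (21.7%) and in 119 of the 724 without (16.4%), a difference of 5.30 points whose interval includes 0 (-1.88 to 13.5). Neither was present in 605 domains, 70.2% of all. The shares of all H3K4me3 regions that hold both or neither were not computed, so these counts have no background.

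The share of H3K4me3 regions that were broad domains varied between chromosomes. Chromosome 17 had the highest share of its H3K4me3 regions in the class, 65 of 1200 (5.42%, 4.21 to 6.85%), and chromosome 14 the lowest, 24 of 883 (2.72%, 1.75 to 4.02%). Over all autosomes it was 862 of 23662. These 2 chromosomes were picked as the extremes, and the spread between chromosomes was not tested. With domains within 100 kb chained together, 11 clusters of 3 or more held 42 domains. The largest ran over 472 kb of chromosome 10, 79144101 to 79615999, with 8 domains, 5 of them broad in both populations and 3 in Sox13lo only, and it ends in the widest domain of all. The second, on chromosome 17 from 34045401 to 34336449, had 7 domains, 4 broad in both and 3 in Sox13lo only. How often other H3K4me3 regions chain in this way was not computed, so the number of clusters has no background.

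Gaps of 250 bp or less separated 4 pairs of domains, which a more lenient caller might join. The longest, on chromosome 11 from 52087901 to 52097449, spanned 9550 bp with a gap of 100 bp between the domains. Its first part was a Sox13hi peak of 4350 bp against a widest Sox13lo peak of 2000 bp, and its second part had peaks of 4700 bp in Sox13hi and 5050 bp in Sox13lo. Neither part held SOX13. A pair at 117640301 to 117645499 lay on the same chromosome, another at 34725751 to 34730449 on chromosome 17, and the last at 43851051 to 43855549 on chromosome 9. None of these held SOX13 either.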

How the data were processed

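The data are 5 deposited peak lists, 1 per library, giving each peak a position and a score. The authors' score is a positive number near a multiple of 0.25. How it is defined, and which aligner, caller, threshold and control made the lists, is not given in the sources used here. Positions are on mm9, a build named in the submitters' processing notes. Per the labels' protocols, 1000000 cells were used for SOX13 and 250000 for each histone mark, and libraries of 300 to 500 bp were amplified for 17 cycles. Peaks start on a 50 bp grid and end 1 bp short of it, so widths count the last base. Printed starts count from 1, with deposited ends. Depth is unknown, as no read numbers were used, and depth and thresholds can change both peak number and width. Scores were ranked within a list and not compared between lists.

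Overlap meant at least 1 bp. For a difference of shares, a 95% interval of Newcombe's type was built from the exact bounds. The domains, comparisons and named-region rule were chosen with earlier results of these data known. The rule names the 10 widest domains, the 5 with the largest width excess in each population, those without a peak in the other list, the 5 highest SOX13 scores and the 5 with most H3K27me3. The text describes most of them, and domains beyond it were chosen after their values were seen. Gene names, gene lists and sequences, planned for the case of an mm9 annotation, were not used. Alternatives covered the width limit, joined peaks, equal numbers of broad peaks, overlap, score, list length, edge zone and chromosome X.

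Python 3.11.15, NumPy 2.4.6, pandas 2.3.3, SciPy 1.17.1 and matplotlib 3.10.9 were used. On 600 simulated loci the code returned all planted classes, and for 3 lists its counts equalled those of bedtools 2.31.1.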

Additional observations from a re-analysis of the deposited data

Results flagged for a closer look

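The rule for the domains leaves out the sex chromosomes, and both carried broad H3K4me3 peaks, in numbers above the 3 counts taken as the floor. Chromosome X had 6 domains, 1.18% of its 508 H3K4me3 regions, of which 3 were broad in both populations, 1 in Sox13hi only and 2 in Sox13lo only. SOX13 was present in 1 of them and H3K27me3 in 0 in either population. Chromosome Y had 5 domains, 4.35% of its 115 regions. All 5 held H3K27me3 in each population and SOX13, which was mapped in Sox13hi cells only. The shares of the 115 regions that hold these were not computed, so the count has no background. No input library was used here, so enrichment without an antibody in the domains of chromosomes X and Y was not tested.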

How the results depend on the processing

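No paired analysis was possible because groups are single libraries, which also leaves no replicate to omit. The number of domains follows the width limit. At 1500 bp there were 2663, with 497 broad in Sox13hi only, 464 in Sox13lo only and 1702 in both; at 3000 bp there were 109, with 37, 27 and 45. Joining peaks within 1 kb gave 1417, with 820 broad in both.

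The share of domains with SOX13 was 22.9% at 3000 bp and 12.5% with the top 50% of the SOX13 and H3K27me3 lists by score. SOX13 at an edge was 2.67% in that top 50%, 1.62% with an edge zone of 250 bp and 13.3% with one of 1000 bp, so it follows the zone chosen. H3K27me3 was found in 11.9% of domains in each population at 3000 bp, in 22.4% in Sox13hi and 20.8% in Sox13lo with joined peaks, and in 11.9% in Sox13lo in the top 50%. Of the class differences, 3 changed sign at 3000 bp: Sox13hi-only minus both for H3K27me3 in Sox13hi, to -3.00 points, and Sox13hi-only minus Sox13lo-only for H3K27me3 in Sox13hi, to -10.4 points, and in Sox13lo, to -11.4 points, with intervals that include 0; few domains remain there, and the cause was not tested. Of 207 values recomputed under 12 settings, 161 stayed within 1.5 times (counts) or within the interval as reported (shares and differences). Some of the 161 could not move. The overlap and top 50% settings do not enter the domain counts, and the overlap setting does not enter the edge and inner shares. Equal list lengths leave the shorter Sox13lo H3K27me3 list whole. The 161 are therefore not a measure of stability.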
